A study of Mus musculus with 8 samples.

Results

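Gapdh and Ldhal6b, a glycolytic enzyme gene and a lactate dehydrogenase-like gene, were followed in mouse skeletal muscle at birth and in the young adult. The genes were found by matching the transcript accession of each array probe, without its version, to the RefSeq gene table of assembly GRCm38.p6. Each gene has 1 probe, printed at 20 spots scattered over the array. They are 2 of the 15 genes printed at 20 spots, 2 of 110 coding genes with a symbol on the array, and 2 of 59709 array features left after control spots. The samples were total RNA of skeletal muscle from ICR mice, an outbred strain, at postnatal day 0 (D0, 4 samples) and postnatal day 65 (D65, 4 samples). The labels name no treatment or genetic change at either age, and do not say which muscle was taken or whether each sample came from an animal of its own. The spread behind the p-values below is that between these samples and could be technical. The study profiled long noncoding RNA, and these genes are among the few coding genes that its array names.

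GAPDH oxidises a triose phosphate in the middle of glycolysis, the pathway by which muscle fibres make ATP from glucose and glycogen, and it uses up NAD in doing so. Lactate dehydrogenases convert pyruvate and lactate into each other and so give NAD back. Muscle relies mainly on the products of Ldha and Ldhb for this step, while Ldhal6b is a related gene known mostly from testis. Gapdh is widely used as a reference gene for RNA measurements. The mouse genome holds many processed copies of Gapdh, and the sequence of the array probe was not used here, so whether the probe also reads such copies is uncertain.

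On average the D0 arrays were brighter than the D65 arrays, with D0 replicate 4 close to the D65 arrays. The 75th percentile of probe signal, the value used for scaling, lay at 256 to 309 on D0 replicates 1 to 3, at 136 on D0 replicate 4 and at 121 to 151 on the D65 arrays. Probes well above background made up 63.1% to 68.4% of an array at D0 and 52.3% to 60.7% at D65. The headers of all 8 arrays give 1 scan time and a different row and column for each, so the arrays were taken to lie on 1 slide. Each age filled a row of the slide of its own, so an effect of the row cannot be told apart from age, while each of the 4 columns held both ages. None of 16 skeletal muscle marker genes, and 0 of 40 markers over 7 cell types, has a named probe, so the tissue label could not be checked.

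Gapdh was among the brightest probes of every array, and its unscaled signal differed between the ages by less than the spread between replicates. On the log2 scale of the processed signal, before any scaling between arrays, Gapdh stood at 18.11, 18.30, 18.13 and 17.80 on D0 replicates 1 to 4. At D65 it stood at 17.97, 18.10, 18.01 and 18.08. The 4 D65 arrays lay within the range of the D0 arrays, whose lowest was replicate 4. The mean moved from 18.08 ± 0.21 to 18.04 ± 0.059 (SD, n = 4), a difference of -0.045 (exact permutation test over the samples, two-sided, p = 0.657). In the limma fit over all tested probes without scaling the difference had an SE of 0.21 and an adjusted p of 0.872.

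Ranked by brightness among 59663 to 59705 probes, Gapdh was 14th, 15th, 15th and 16th from the top at D0 and 12th, 17th, 13th and 11th at D65. A probe's brightness also depends on its sequence, so these ranks describe the array and do not compare RNA amounts between genes. The Gapdh signal reached 29.4% to 41.5% of the scanner's saturation value, and no spot of any probe was marked as saturated. All 20 spots were well above background on each array, with between 0 and 3 left out as outliers.

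After scaling, the same probe stood higher at D65. The log2 level, which is the log2 signal minus the log2 of the array's 75th percentile, was 10.02, 10.03, 10.13 and 10.71 on D0 replicates 1 to 4. It was 10.92, 11.19, 10.83 and 10.83 on D65 replicates 1 to 4. The ages did not overlap, although D0 replicate 4 stood closer to the D65 arrays than to the other D0 arrays. The mean level was 10.22 ± 0.33 at D0 and 10.94 ± 0.17 at D65 (SD, n = 4), a difference of 0.72 (SE 0.22), or 1.65-fold. The exact permutation test gave p = 0.0286, the smallest that 4 against 4 samples allow. The limma adjusted p over 34948 tested probes was 0.0344, with the difference under the minimum of 1 set for a call, so Gapdh was not called. An adjusted p under 0.05 with a higher level at D65 was found for 14.7% of all tested probes, and 31.5% had values that did not overlap between the ages.

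**Figure D1:**
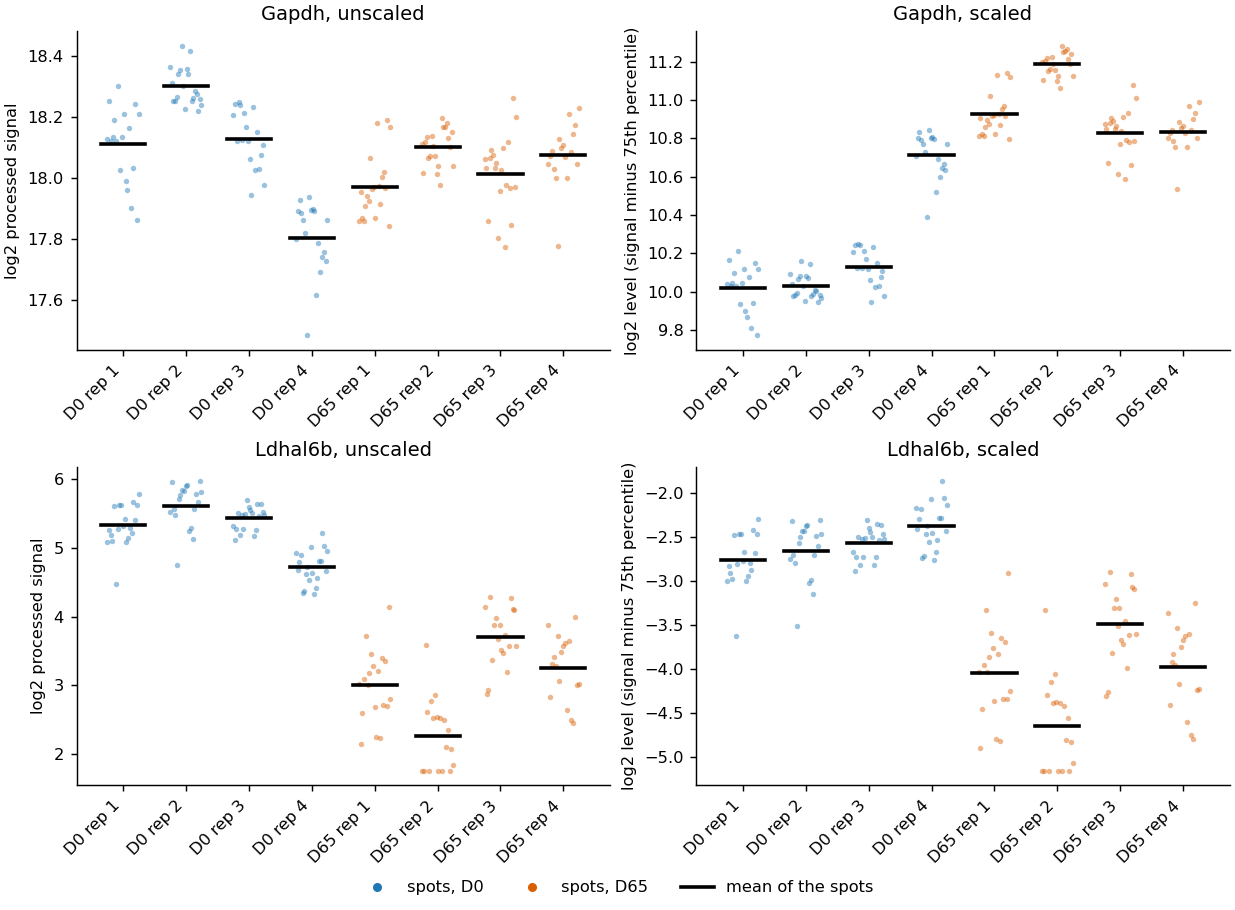
Gapdh (upper panels) and Ldhal6b (lower panels) on each of the 8 arrays, as log2 processed signal without scaling (left) and as log2 level after subtraction of the array's 75th percentile (right). Points are spots that were not outliers, and black bars are their means. Unscaled Gapdh overlaps between the ages while scaled Gapdh does not, and Ldhal6b, not well above background at D65, is lower on every D65 array on both scales.

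The scale itself, the log2 of the 75th percentile signal, had a mean of 7.86 at D0 and 7.10 at D65, a difference of -0.77, close in size to the scaled difference of Gapdh. Within the 4 columns of the slide, each of which held 1 array of each age, Gapdh differed by 0.90, 1.16, 0.70 and 0.12 after scaling. Without scaling these differences were -0.14, -0.20, -0.11 and 0.27. Column 4, with D0 replicate 4, therefore gave the smallest scaled difference and the one positive unscaled difference. Without D0 replicate 4 the scaled difference was 0.88 with an adjusted p of 0.00496, while without any of the 7 other arrays the adjusted p lay between 0.061 and 0.096. With slide column, which equals the replicate number, as a block (replicate block) the adjusted p was 0.0686.

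Other scalings gave Gapdh differences on both sides of 0. Quantile normalization, which gives every array the same distribution of values, left 0.028 (SE 0.15, adjusted p 0.909), and with normexp background correction before it the difference was -0.015 (adjusted p 0.911). Scaling to the mean of the 13 other genes printed at 20 spots gave 1.36 (SE 0.27, adjusted p 0.00260), past the threshold of a call. Under that scaling 32.1% of all tested probes were called higher. The median difference over all tested probes was 0.064 in the main setting, -0.70 without scaling and 0.70 under scaling to those 13 genes. Measured from that median, Gapdh stood 0.66 higher under each of these 3, which differ by a constant per array, and at -0.058 after quantile normalization.

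The difference of Gapdh lay in the middle of those of the brightest probes. Among the 50 probes with the highest mean signal over the 8 arrays, a group chosen after values had been seen, 49 were higher at D65 after scaling. Their median difference was 0.72, with quartiles of 0.65 and 0.82. Gapdh, 1 of the 50, was the 25th from the lowest, so this median and the unscaled one below rest in part on its own value. Without scaling 19 of the 50 were higher and 31 lower, with a median of -0.045. The next 450 probes by brightness had a median scaled difference of -4.5e-05, with 225 higher. Of the 50 brightest probes, 1 has a gene symbol here, that of Gapdh. What sets the brightest probes apart was not tested.

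**Figure D2:**
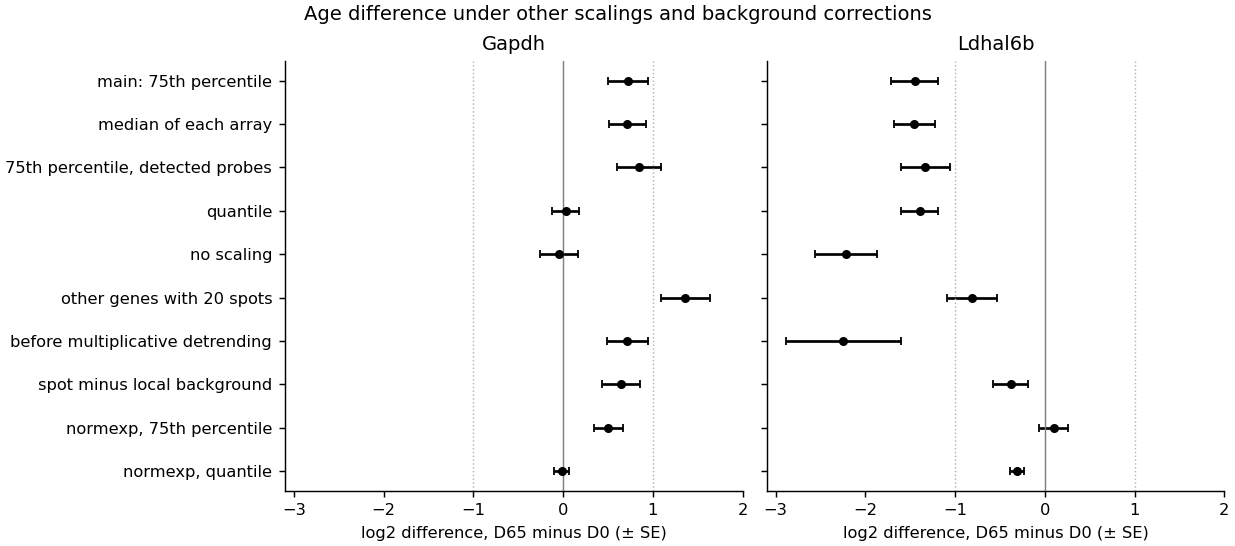
Log2 difference between D65 and D0 (points, bars ± SE from limma, n = 4 arrays per age) of Gapdh (left) and Ldhal6b (right) under the main setting, other scalings and other background corrections. Dotted lines mark the minimum change of 1 in either direction. Gapdh lies between -0.045 and 1.36, and Ldhal6b below 0 in each setting shown except normexp with the 75th percentile, at 0.099.

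The spots of Gapdh agreed closely within an array. Their SD on the log2 scale was 0.061 to 0.124 over the 8 arrays, with a mean of 0.10 at D0 and 0.098 at D65. The brightest used spot was 1.16 to 1.40 times the dimmest. Taken by position on the array, 20 of 20 spot positions gave a higher mean level at D65 after scaling, with differences from 0.57 to 0.99. Before scaling 6 positions were higher and 14 lower, between -0.27 and 0.11. Spots share their sample, so they do not add replicates of an age.

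Ldhal6b was lower at D65 and there lay close to the array's background. Its processed signal was 40.2, 49.0, 43.1 and 26.3 intensity units on D0 replicates 1 to 4. On D65 replicates 1 to 4 it was 8.005, 4.82, 12.99 and 9.59. Every D65 array lay below every D0 array, with D65 replicate 2 the lowest. The scaled log2 level was -2.76, -2.66, -2.57 and -2.37 on the D0 arrays and -4.05, -4.64, -3.49 and -3.98 on the D65 arrays. The mean was -2.59 ± 0.16 at D0 and -4.04 ± 0.47 at D65 (SD, n = 4). On this scale the ages did not overlap, as for 31.5% of all tested probes. No such share was computed for the unscaled signal. As no D65 array had Ldhal6b well above background, the size of the difference has no more than a bound. In the main setting, with the background of the scanner software, this bound was at least 1.37-fold higher at D0. With local background alone the log2 difference was -0.38. After normexp correction, which here added an offset of 50 to every corrected signal, it was -0.31 with quantile normalization and 0.099 with the main scaling. Such an offset draws the log2 differences of dim probes towards 0. Each of these differences falls short of the bound, which therefore does not carry over to other background corrections. The limma fit over 34948 tested probes, which took the D65 values as they stood, gave -1.45 (SE 0.26, adjusted p 0.00241), a call as lower. The probe was tested through its D0 arrays alone, so this adjusted p describes the fit and adds no separate support. For comparison, 22.1% of all tested probes were called, 12.6% as lower at D65.

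Detection of Ldhal6b spots split by age. Of the spots that were not outliers, 19 of 19, 19 of 19, 19 of 19 and 20 of 20 were well above background on D0 replicates 1 to 4. On D65 replicates 1 to 4 the counts were 0 of 19, 0 of 18, 5 of 18 and 0 of 17. The gene thus had a measured level on all 4 D0 arrays and stayed under the well-above-background limit on the 4 D65 arrays. It entered the fit through the D0 arrays alone, and a filter of this kind selects probes that are brighter at one age. A further flag, for a signal positive and significant against background, was set on 17 of 19, 12 of 18, 18 of 18 and 17 of 17 spots at D65, and on all used spots at D0.

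The bound was set as follows. The lowest level among probes well above background was -2.75, -2.83, -3.34 and -3.25 on D65 replicates 1 to 4, above Ldhal6b on each. Means against these floors gave the 1.37-fold bound, below the 2.73-fold of the measured means. Leaving out each array in turn gave bounds of 1.28 to 1.46. No bound could be given after normexp correction, with its offset of 50, and the 75th percentile, where the ratio was 0.929.

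Negative control probes set a second background. The array carries 20 such probes of 60 spots each, with median signals of 3.51 to 4.40 at D0 and 3.59 to 4.66 at D65. Of these 20 probes, 1 was brighter than Ldhal6b on D0 replicates 1 to 3 and 2 on replicate 4, against 5, 5, 4 and 4 on D65 replicates 1 to 4. On the log2 scale it stood 3.26 ± 0.25 above their median at D0 and 1.11 ± 0.64 above it at D65 (SD, n = 4). The D65 distances are those of a probe not well above background and are given as a description. The brightest negative control, at 40.1 to 59.8 at D0 and 29.7 to 51.2 at D65, lay above Ldhal6b on all 8 arrays.

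**Figure D3:**
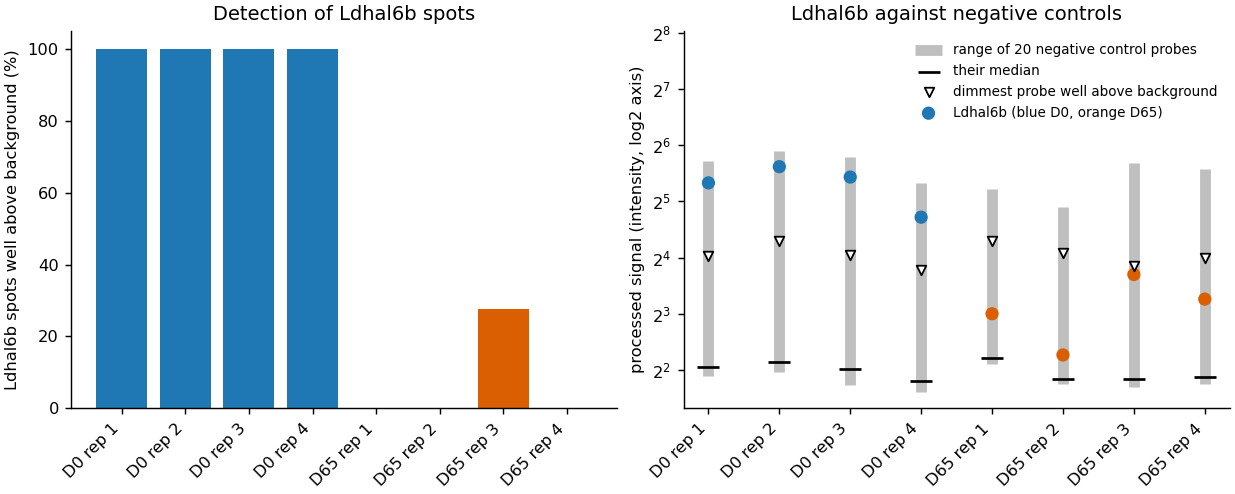
Left, share of the used Ldhal6b spots marked as well above background on each array (%), at 100% on the D0 arrays and 27.8% on D65 replicate 3. Right, processed signal of Ldhal6b (points, log2 axis) beside the range and median of 20 negative control probes and the dimmest probe well above background on the same array. The D65 points lie below that dimmest probe and within the range of the negative controls.

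The difference of Ldhal6b depended on how the background was taken. Before subtraction the median Ldhal6b spot brightness was 102, 111, 92.5 and 75.3 on D0 replicates 1 to 4 and 69.0, 51.5, 66.3 and 63.0 on D65 replicates 1 to 4, over local backgrounds of 30.5 to 39.0. These brightness values did not overlap between the ages, but the share of all probes for which this holds was not computed. The spot was 2.21 to 3.08 times its local background at D0 and 1.51 to 2.17 times at D65. With local background alone subtracted and no detrending, the log2 difference was -0.38 (adjusted p 0.162). After normexp correction with its offset of 50, it was 0.099 with the 75th percentile (SE 0.16, limma adjusted p 0.646), in the opposite direction. With quantile normalization after normexp it was -0.31 (limma adjusted p 0.0186). With the background of the scanner software it was called lower under quantile normalization, median scaling and no scaling, at -1.40, -1.45 and -2.22. Scaling to the 13 other genes printed at 20 spots left -0.81 (limma adjusted p 0.0302), under the minimum change.

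Spots of Ldhal6b spread more than those of Gapdh. Their SD was 0.30, 0.32, 0.17 and 0.25 on the D0 arrays and 0.52, 0.52, 0.43 and 0.47 on the D65 arrays. On D65 replicate 2, 6 of the 18 used spots shared 1 signal of 3.38, which is also the lowest signal of a negative control probe on that array. The D65 spreads therefore describe spots near the floor of the scale, and no result of a comparison with those at D0 is given. All 20 spot positions gave a lower mean level at D65, by differences of -2.30 to -0.91 that rest on the same spots. Probes of like brightness lay on both sides of 0. Of the 1000 probes nearest to Ldhal6b in mean signal, detected or not, 474 were lower and 526 higher at D65 with a median of 0.049. Of the 1000 nearest that were tested, 733 were lower, with a median of -0.37 and quartiles of -0.88 and 0.036, and Ldhal6b was the 148th from the lowest. Both sets were chosen after values had been seen.

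Set against Gapdh within an array, the processed signal of Ldhal6b differed by -2.17 (SE 0.31, limma adjusted p 0.000674 in a fit of all probes relative to Gapdh). This value too rests on D65 values that were not well above background and on a probe kept through D0 alone. It moved with the background correction, to -1.02 with local background alone, -0.41 after normexp with the 75th percentile and -0.30 after normexp with quantile normalization. In the fit relative to Gapdh 29.7% of all probes were called lower at D65. The split of calls turned from 3344 higher and 4395 lower after 75th percentile scaling to 920 higher and 10389 lower. This choice of scale was made after the data were seen.

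The 13 other genes printed at 20 spots were also set against Gapdh. They are mostly common reference genes, such as Actb, Hprt, Tbp and Ppia. After 75th percentile scaling 5 were called lower and 0 higher, where 12.6% of all tested probes were called lower. Relative to Gapdh 8 were called lower and 0 higher, where 29.7% of all tested probes were called lower, and 12 of 13 had a negative difference. The median difference of all tested probes relative to Gapdh was itself -0.66. The 3 added calls were Ppia, a prolyl isomerase, at -1.39 (SE 0.18), Gusb, a lysosomal glucuronidase, at -1.63 (SE 0.28), and Gk, a glycerol kinase, at -1.12 (SE 0.22), with limma adjusted p of 0.000435, 0.00164 and 0.00326. Tfrc, the transferrin receptor, differed from Gapdh by -0.0084 (SE 0.21, adjusted p 0.977) and B2m, of MHC class I, by 0.26 (SE 0.22, adjusted p 0.344). An adjusted p above the threshold does not show that these genes moved alike.

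Without scaling Gapdh had the smallest spread of the 15 genes over the 8 arrays, with an SD of 0.14 on the log2 scale. Most of the 50 brightest probes also had a small unscaled difference, with the median of -0.045 given above. Gapdh itself lies at that median, and the part of this pattern in its small spread was not tested. The 13 others ran from 0.27 for Tfrc to 1.60 for Tuba1b, an alpha-tubulin. After 75th percentile scaling the order changed. The SD of Gapdh became 0.46, the fourth smallest, and G6pd2, a copy of the glucose-6-phosphate dehydrogenase gene, had the smallest at 0.15. Ldhal6b had an SD of 1.27 without scaling and 0.84 after it. Its median spot SD over the 8 arrays, 0.37, was the largest of the 15, where the others besides Gapdh ran from 0.056 to 0.22. That median takes in the D65 arrays, where its spots lay near the floor. On the D0 arrays its spot SD was 0.17 to 0.32, while single arrays reached 0.34 for G6pd2 and 0.41 for Gk.

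**Figure D4:**
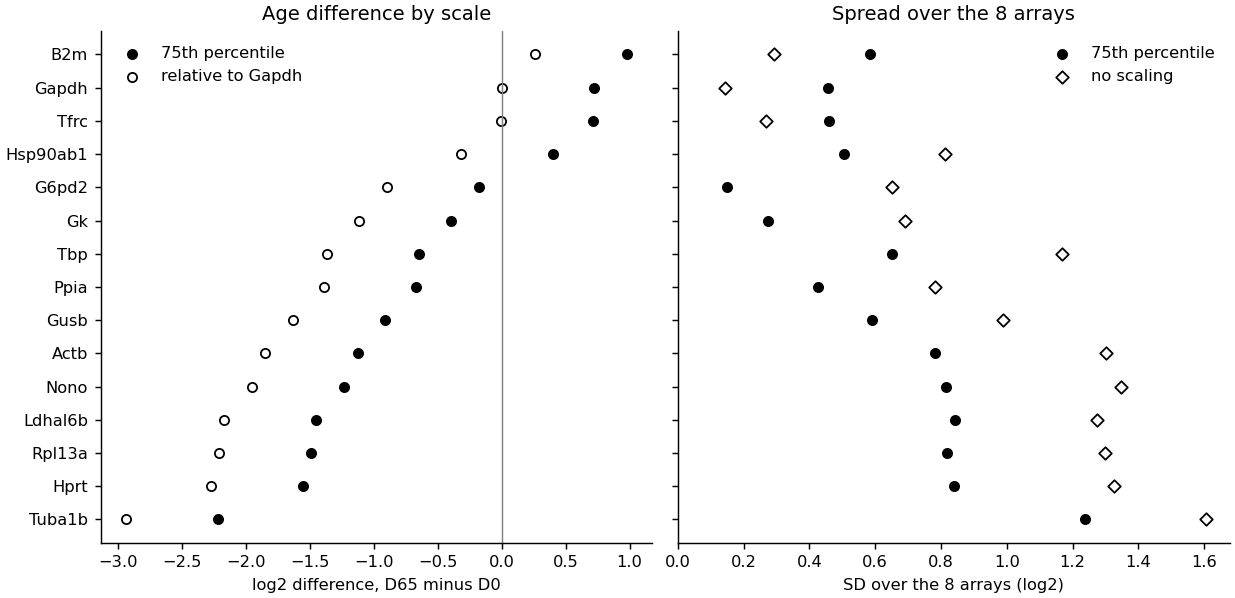
The 15 genes printed at 20 spots, ordered by their unscaled age difference. Left, log2 difference between D65 and D0 after 75th percentile scaling (filled) and relative to Gapdh (open), where Gapdh is 0 by construction. Right, SD over the 8 arrays after 75th percentile scaling (filled circles) and without scaling (open diamonds), with Gapdh lowest without scaling at 0.14 and G6pd2 lowest after it at 0.15.

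Other genes of the pathway could not be set beside this pair. Of 41 genes of glycolysis, lactate dehydrogenase, pyruvate entry and glucose or lactate transport, Gapdh and Ldhal6b alone have a named probe, so 1 was called lower and 0 higher after 75th percentile scaling, where 12.6% of all tested probes were called lower. That call was lost under both normexp settings, with local background alone and against the 13 other genes printed at 20 spots. Probes under vendor identifiers may read further members, but no table used here names them. In bulk muscle, fewer cells of a type and less RNA per cell cannot be told apart. No testis germ cell marker of the 7 listed has a named probe either.

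Among 72 other named genes with a tested probe, those with the highest Pearson correlation to Gapdh over the 8 arrays were Gm21953 (0.914), Tfrc (0.892) and B2m (0.888). On deviations from the age means these were 0.665, 0.639 and 0.544, and without scaling 0.356, 0.620 and 0.366. For Ldhal6b they were Ppp2r3d, named for a phosphatase subunit (0.946), Hprt, a purine salvage enzyme (0.930), and Tuba1b (0.929). On deviations from the age means these were 0.723, 0.346 and 0.425, and without scaling 0.9765, 0.9717 and 0.9518. The correlations of Ldhal6b take in its D65 values, which were not well above background. Genes on an array share its scale and the 2 ages, so these values describe the 8 arrays.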

How the data were processed

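Scanner files of 8 arrays were used as deposited. Per the file headers, Agilent Feature Extraction 11.0.1.1 read the 1-colour scans on a grid built on mm9, and hold for each spot an intensity on a linear scale. The processed intensity is background-subtracted and detrended by that software, and other deposited columns hold spot and background brightness and flags of 0 or 1. Per the labels' protocols, RNA was depleted of ribosomal RNA and labelled by random priming.

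Control spots, 20 negative control probes and outlier spots were left out, log2 values of a probe's spots were averaged, and each array's 75th percentile was subtracted. A probe was well above background where over 0.5 of its used spots were, and was tested where this held on all 4 arrays of an age. The test between ages was that of limma 3.58.1 (lmFit, eBayes, R 4.3.3), with Benjamini-Hochberg adjustment over all tested probes. A call needs a difference of 1 or more on the log2 scale, besides an adjusted p under 0.05. The fit was tested on simulated data. Single values were compared by exact permutation in scipy 1.17.1, 8 tests computed, with p-values not adjusted. Those of Ldhal6b are not given, since its D65 values were not well above background. The limma adjusted p-values of Ldhal6b rest on the same values and are given as a description of the fit.

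Accessions were matched to RefSeq symbols (116 of 123). Named genes were the pair, a list of 41 pathway genes, the genes printed at 20 spots and the 3 most correlated genes for each. The pair and the lists were chosen with earlier results of these data known. The number of arrays limits the precision. The authors' value table, a deposited intensity on a linear scale with steps not given in the sources used here, holds neither gene. Alternatives covered scaling, background, filter, spots, weights, blocks and single arrays. Normexp correction was run with an offset of 50 added to each corrected signal.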

Additional observations from a re-analysis of the deposited data

Results flagged for a closer look

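In 2 of 16 groups of 4 arrays tested for a value far from the other 3, such an array was found, where chance gives about 1 in 20. The scaled level of Gapdh on D0 replicate 4 was 10.71, against 10.13 for the nearest and 10.02 for the lowest D0 array. Unscaled, Gapdh on that array was the lowest of D0 at 17.80, and its 75th percentile signal was 136. The distance of Gapdh above the median negative control probe was 15.75 on D65 replicate 1 on the log2 scale, against 16.17 to 16.25 on the other D65 arrays. That array had the brightest median negative control, at 4.66. The part of these values in the results was not tested.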

How the results depend on the processing

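Of 25 alternatives, Gapdh kept its direction and stayed uncalled in 21. Among these are the 8 fits without single arrays, which share most of their data, and settings that leave the difference as it was. Quantile normalization, at 0.028, also counts among them. Gapdh was reversed at -0.045 without scaling and at -0.015 after normexp with quantile normalization. It was called at 1.36 against the other genes with 20 spots and at 0.72 when no minimum difference was asked. The adjusted p was under 0.05 in 13 of the 25, between 0.00198 and 0.911. Leaving out single arrays gave 0.64 to 0.88.

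Ldhal6b stayed called in 21 of 25 alternatives, from -2.25 (before multiplicative detrending, chosen after seeing the data) to -1.25. These include the 8 fits without single arrays, which share most of their data, and settings that leave the difference as it was. No setting that replaced the background of the scanner software kept the call, so the count does not measure how firm it is. The normexp settings also added an offset of 50, above the processed signal of Ldhal6b on any array, 49.0 at most. They therefore cannot tell the background correction from that offset. Ldhal6b was not called against the other genes with 20 spots, at -0.81, or with local background alone, at -0.38. After normexp the difference was -0.31 with quantile normalization, not called, and 0.099 (SE 0.16) with the 75th percentile, in the opposite direction. Leaving out single arrays gave -1.63 to -1.25. Of its bound, 9 of 10 alternatives stayed above 1, with 1.28 to 1.46 without single arrays. Normexp, which alone among these changed the background and added an offset, gave 0.929. The part of the normexp offset in these values, and why the background correction matters, were not tested beyond the brightness values above.

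The count of called probes, 7739, was 13579 against the other genes with 20 spots (82.5% higher, against 43.2% in the main setting), 4475 after normexp with the 75th percentile, 4241 after normexp and quantile normalization, and 2734 of 14529 in the deposited table, which lists fewer probes. It was 6894 to 10126 without single arrays. Without scaling 7.34% of the calls were higher, and relative to Gapdh 8.14%.

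Same-numbered arrays did not all deviate together (correlations of -0.116, 0.236, 0.284 and -0.129), so the numbers, which equal slide columns, were not taken as pairs. With the replicate block 7750 probes were called. In that limma fit Gapdh stood at 0.72 (adjusted p 0.0686) and was not called. Ldhal6b stood at -1.45 (adjusted p 0.00658), on D65 values that were not well above background. No slide or scan block was possible because all arrays share 1 scan time and were taken to lie on 1 slide. Depth on an array is signal over background, which limits Ldhal6b at D65.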

Other observations

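The arrays of the 2 ages differed less at the very top of the brightness range than at the 99th percentile and below. The mean log2 signal at D65 minus that at D0 was -0.76 at the median probe, -0.77 at the 75th percentile, -0.90 at the 90th and -0.93 at the 99th. At the 99.98th percentile it was -0.065. That percentile was set at the mean rank of Gapdh, so its value follows Gapdh and the probes next to it. Without scaling, the median difference was -0.045 over the 50 brightest probes, which include Gapdh, and -0.77 over the next 450. The other percentiles are values of whole arrays and say nothing of any single gene.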
